A study of Bos taurus with 22 samples.

Results

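The tricarboxylic acid (TCA) cycle oxidizes acetyl-CoA in the mitochondrial matrix, and its intermediates are refilled by anaplerotic reactions such as the carboxylation of pyruvate to oxaloacetate. Several of its steps also have cytosolic isoenzymes that work on citrate, isocitrate and malate exported from mitochondria and that supply NADPH or carry reducing equivalents. In the small intestine, villus enterocytes are rich in mitochondria and oxidize glucose, glutamate and glutamine. The 9 enzyme genes described here were selected by gene symbol in the count table, and all 9 of the 9 symbols were found among 27570 genes. Cytosolic aconitase (ACO1), cytosolic isocitrate dehydrogenase (IDH1) and cytosolic malate dehydrogenase (MDH1) form the cytosolic group of 3 genes. Citrate synthase (CS), mitochondrial isocitrate dehydrogenase (IDH2), the alpha subunit of succinyl-CoA synthetase (SUCLG1), its GTP-specific beta subunit (SUCLG2), dihydrolipoamide dehydrogenase (DLD) and pyruvate carboxylase (PC) form the mitochondrial group of 6 genes.

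Jejunal mucosa was scraped from 22 Holstein steers of 10 to 12 months of age, in 6 blocks of body weight. Every steer received raw corn starch into the abomasum at 3.94 g/kg of body weight per day for 7 d. Control (5 steers) was given water in place of casein and injections of bovine serum albumin (BSA), GLP-2 (5 steers) was given water and glucagon-like peptide 2 (GLP-2) at 100 µg/kg per day, Casein (6 steers) was given casein at 1.3 g/kg per day and BSA, and Casein + GLP-2 (6 steers) was given both. GLP-2 was dissolved in the BSA vehicle and both were injected under the skin. GLP-2 is a hormone of intestinal endocrine cells known for promoting growth of the mucosa. The question asked here is whether messenger RNA of these enzymes differed with GLP-2, with casein or with both. The comparison of GLP-2 with BSA pooled 11 steers against 11, and that of casein with water pooled 12 against 10, so both use the same steers.

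Library totals ran from 8809666 to 28447810 counts with a median of 12028561. All 16 villus enterocyte markers were fitted higher with GLP-2 and 3 passed the test, with summed levels of 30089 to 125739 counts scaled to library size (CPM) in GLP-2 steers and 3704 to 85709 in BSA steers. All 11 B cell follicle markers tested were fitted lower and 10 passed, with summed levels of 36.4 to 92.5 CPM against 54.8 to 2282. The 4 plasma cell markers were likewise fitted lower and 2 passed, with summed levels of 52.9 to 1889.9 CPM against 68.1 to 5301. All 6 proliferating crypt cell markers were fitted lower and 1 passed, with summed levels of 139 to 629 CPM against 167 to 802. The 8 smooth muscle markers were all fitted lower and none passed edgeR's test (3 had an unadjusted p up to 0.05). Their summed levels were 31.9 to 805 CPM against 31.3 to 1446. Of 6 T cell markers, 5 were fitted lower and 1 passed, with summed levels of 545 to 1173 CPM against 372 to 1472. By the same test, 5.13% of all genes passed as higher and 8.37% as lower. The libraries Control 1, 3 and 5 and Casein 3 stood apart, with a mean follicle marker level between 5.87 and 6.85 log2 CPM against at most 3.64 in the other 18. Villus enterocyte markers were detected in every treatment, with none of the 16 at 0. In scraped tissue, fewer cells of a type and less RNA per cell cannot be told apart.

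Levels are counts scaled to gene length and library size (FPKM), normalized between libraries by the trimmed mean of M values (TMM). On this scale they are set side by side between genes. Lengths ran from 1672 bases for SUCLG1 to 6476 for PC. The study reports RNA integrity that varied between samples, and its part in the order of levels was not tested. Over all 22 steers the order of the mean FPKM was SUCLG1 (356), IDH2 (256), SUCLG2 (230.3), MDH1 (167), CS (133), IDH1 (128), ACO1 (53.2), DLD (42.5) and PC (26.0). The most abundant was thus the shared alpha subunit of succinyl-CoA synthetase, which forms succinate, and the least abundant was PC, the carboxylase that makes oxaloacetate. The step from IDH1 to ACO1 was the widest, at 1.21 ± 0.34 on the log2 scale (mean ± SD of the log2 ratio within a steer), and IDH1 was the higher in 22 of 22 steers. SUCLG2 was also above MDH1 in 22 of 22 steers, by 0.46 ± 0.23. SUCLG1 was above IDH2 in 20 of 22 steers (0.49 ± 0.34), and DLD was above PC in 19 of 22 (0.98 ± 0.85). For the remaining neighbours the mean log2 ratio was smaller than its SD between steers. MDH1 was nonetheless above CS in 20 of 22 steers (0.32 ± 0.35) and ACO1 above DLD in 19 of 22 (0.30 ± 0.35). IDH2 was above SUCLG2 in 16 of 22 steers (0.14 ± 0.33) and CS above IDH1 in 11 of 22 (0.13 ± 0.45).

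**Figure D1:**
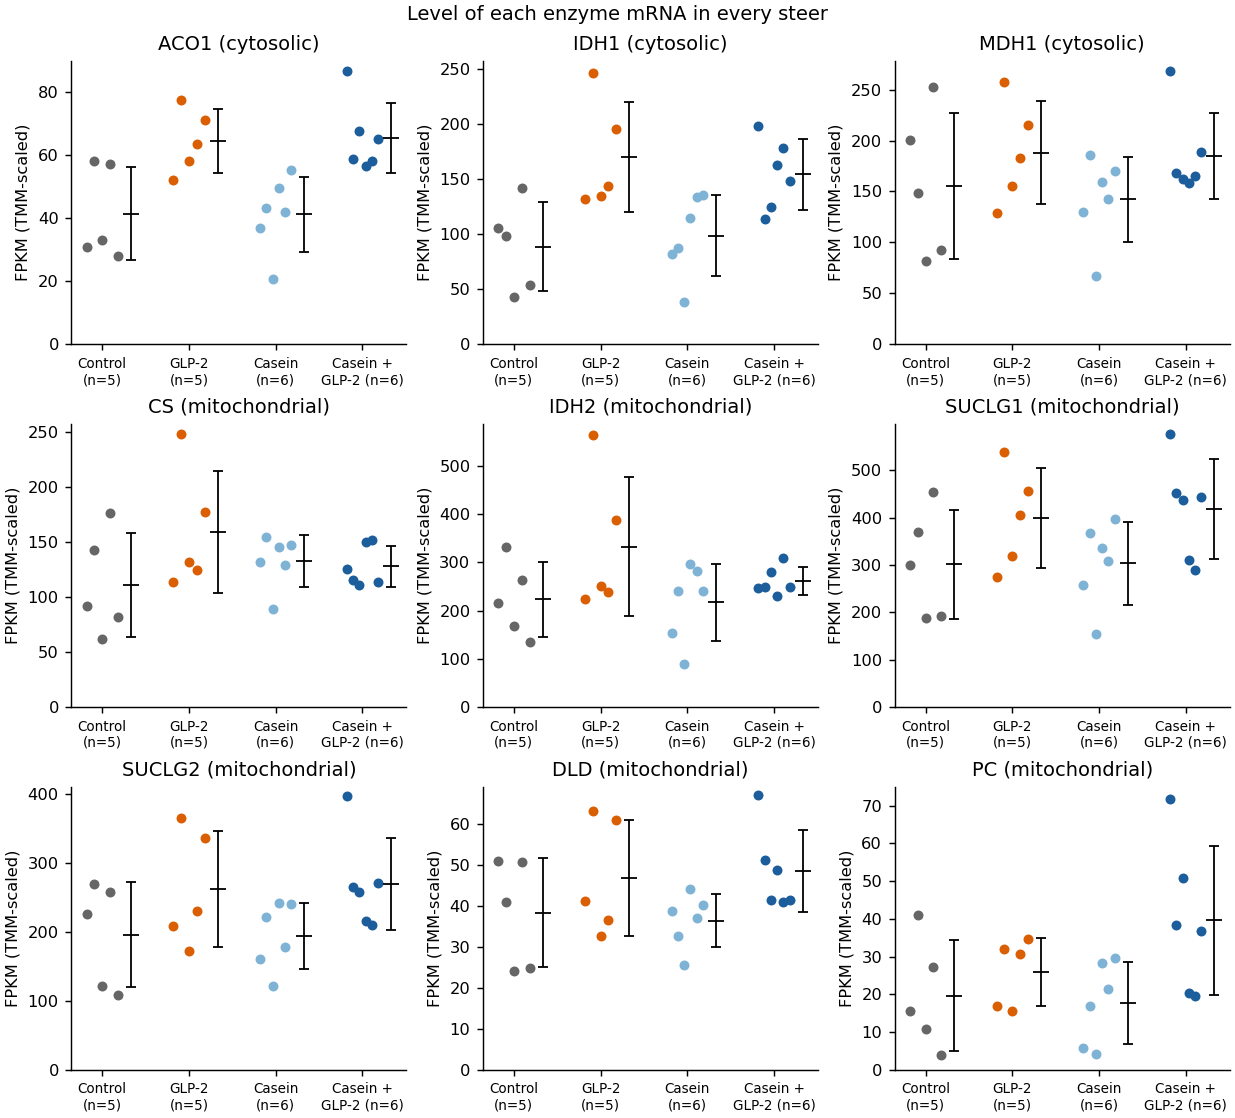
TMM-scaled FPKM of the 9 enzyme genes in each steer (1 point per steer) by treatment, with the mean and SD as a bar beside the points; the axes start at 0 and differ between panels. ACO1 lies between 52.3 and 86.5 in the GLP-2 injected steers and between 20.7 and 58.2 in the BSA injected steers.

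GLP-2 was associated with more messenger RNA of ACO1 and IDH1, both cytosolic, and with no passing change in any of the 6 mitochondrial genes. That contrast is only one of passing the threshold, and a difference between the cytosolic and mitochondrial groups was not tested. Their median log2 fold changes were 0.67 and 0.44. The largest single value was that of mitochondrial PC (0.87), while cytosolic MDH1 was at 0.34. With the adjusted p at 0.05 or less, 2 of 9 genes were higher and 0 lower, while 5.13% of the 13928 genes tested were higher, 8.37% lower and 13.5% changed in either direction. By compartment these were 2 of 3 cytosolic and 0 of 6 mitochondrial genes, and at an unadjusted p up to 0.05 they were 2 of 3 and 5 of 6. All 9 log2 fold changes were above 0, with a median of 0.45 against 0.0079 for all genes tested. With the adjusted p allowed up to 0.1, 3 of 9 were higher (11.9% of all genes), and at an unadjusted p up to 0.05, 7 of 9 were higher (16.5% of all genes). The study singled out ACO1, IDH1, PC, DLD, SUCLG1 and SUCLG2 within a TCA cycle pathway that tended to be upregulated with GLP-2. It used these same libraries and a further GLP-2 steer, so the direction of these genes is not independent evidence. CS, IDH2 and MDH1 were not singled out.

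ACO1 converts citrate to isocitrate in the cytosol and, without its iron-sulfur cluster, binds iron-responsive elements in messenger RNA. Its FPKM in the 5 Control steers was 28.1, 30.9, 33.2, 57.1 and 58.2. In the 5 GLP-2 steers it was 52.3, 58.0, 63.4, 71.1 and 77.6. Every GLP-2 steer was above the Control median, but the groups overlapped. The Control values of 28.1, 30.9 and 33.2 came from libraries 5, 1 and 3, all rich in follicle markers. Those of 57.1 and 58.2 lay within the GLP-2 range. In Casein steers it ranged from 20.7 to 55.3 with a median of 42.6, and in Casein + GLP-2 steers from 56.6 to 86.5 with a median of 62.1. Here all 6 Casein + GLP-2 steers were above all 6 Casein steers. The lowest Casein value, 20.7, was that of Casein 3, which is also rich in follicle markers. Pooled, the level was 65.0 ± 10.2 FPKM with GLP-2 and 41.4 ± 12.6 with BSA (SD, n = 11 each). ACO1 rose by 0.67 on the log2 scale (SE 0.16, edgeR's adjusted p = 0.0220), a fold of 1.59.

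IDH1 oxidizes isocitrate to alpha-ketoglutarate in the cytosol and peroxisomes and makes NADPH. Its FPKM in Control was 43.3, 53.4, 97.9, 106 and 142. In GLP-2 it was 131, 134, 144, 195 and 246. The 2 lowest Control values came from libraries 3 and 5, both rich in follicle markers. Control 1, rich in them as well, was at 106, above Control 2 at 97.9. Of the GLP-2 steers, 3 of 5 were above all Control steers. With casein alone the steers ranged from 38.8 to 135 with a median of 101, and Casein + GLP-2 steers from 114 to 198 with a median of 155. IDH1 rose by 0.80 on the log2 scale (SE 0.21, edgeR's adjusted p = 0.0252), from 93.9 ± 36.8 to 161 ± 39.7 FPKM (SD, n = 11 each). All 11 GLP-2 steers were above the BSA median for IDH1, as they were for ACO1.

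MDH1 interconverts malate and oxaloacetate in the cytosol as part of the malate-aspartate shuttle. Its FPKM in Control was 82.1, 93.0, 149, 200.2 and 252, and in GLP-2 it was 129, 156, 183, 215 and 258. All but the highest GLP-2 steer lay within the Control range. In Casein it ranged from 67.0 to 185 with a median of 151 and Casein + GLP-2 steers from 158 to 268 with a median of 167. The log2 fold change of 0.34 (SE 0.20) did not pass, with edgeR's adjusted p at 0.221. MDH1 overlaps WDPCP on the opposite strand, whose 668 counts over all libraries compare with 115709 for MDH1.

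Among the mitochondrial genes, CS makes citrate from acetyl-CoA and oxaloacetate and is widely used as a marker of mitochondrial content. Its FPKM in Control was 62.1, 81.8, 92.1, 143 and 176, and in GLP-2 it was 113, 125, 132, 177 and 248. The Casein group ranged from 89.5 to 155 with a median of 139, and Casein + GLP-2 steers from 111 to 152 with a median of 120.4. The Casein + GLP-2 range lay inside the GLP-2 range except at its lowest value. CS had the smallest log2 fold change of the 9 genes, 0.22 (SE 0.18, edgeR's adjusted p = 0.396), and 4 of 11 GLP-2 steers were above the BSA median. IDH2, the NADPH-making isoenzyme of the mitochondrial matrix, had an FPKM of 136, 168, 215, 262 and 333 in Control and of 223, 238, 250.0, 387 and 563 in GLP-2. The steer with 563 was the highest of the 22, and 3 of 5 GLP-2 steers lay within the Control range. Casein steers ranged from 89.4 to 296 with a median of 241 and Casein + GLP-2 steers from 229.5 to 309.7 with a median of 249. The log2 fold change of IDH2 was 0.43 (SE 0.21, edgeR's adjusted p = 0.144).

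SUCLG1 pairs with a beta subunit to turn succinyl-CoA into succinate. Its FPKM in Control was 188, 193, 301, 370.3 and 454, and in GLP-2 it was 274, 319.5, 405, 455 and 539. With casein alone the steers ranged from 155 to 397 with a median of 321, and Casein + GLP-2 steers from 289 to 577 with a median of 439.9. Each pair of groups overlapped, and 9 of 11 GLP-2 steers were above the BSA median. The log2 fold change of SUCLG1 was 0.45 (SE 0.19) and edgeR's adjusted p was 0.1005. SUCLG2, the beta subunit of the GTP-forming enzyme, had an FPKM of 108, 121, 225, 257 and 268 in Control and of 172, 208, 230.1, 335 and 365 in GLP-2. Here too the groups overlapped. In Casein it ranged from 122 to 241 with a median of 199.7, and all 6 Casein + GLP-2 steers, from 209.6 to 396 with a median of 261, were above the Casein median. SUCLG2 was the only mitochondrial gene of the 6 with an adjusted p up to 0.1, with a log2 fold change of 0.46 (SE 0.19, edgeR's adjusted p = 0.0922).

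DLD is the flavoprotein subunit shared by the pyruvate, alpha-ketoglutarate and branched-chain keto acid dehydrogenase complexes and by the glycine cleavage system. Its FPKM in Control was 24.0, 24.8, 41.0, 50.7 and 50.9, and in GLP-2 it was 32.6, 36.5, 41.3, 60.9 and 63.1. The Casein group ranged from 25.7 to 44.2 with a median of 37.9, and Casein + GLP-2 steers from 41.0 to 67.0 with a median of 45.1. With casein, 5 of 6 Casein steers were below all Casein + GLP-2 steers. The log2 fold change of DLD was 0.37 (SE 0.16, edgeR's adjusted p = 0.109).

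PC, the biotin enzyme that carboxylates pyruvate, had the largest log2 fold change of the 9 genes and the largest standard error. Its FPKM in Control was 3.82, 10.7, 15.5, 27.3 and 41.1, and in GLP-2 it was 15.7, 16.8, 30.6, 32.0 and 34.8. All 5 GLP-2 steers were above the Control median, yet the highest value of the 10 was in a Control steer. Casein steers ranged from 4.15 to 29.7 with a median of 19.1, and Casein + GLP-2 steers from 19.6 to 71.7 with a median of 37.7. The log2 fold change of 0.87 (SE 0.37) had an adjusted p of 0.101 in edgeR's test. Without the library Control 2, the steer at 41.1, it was 1.06 with an adjusted p of 0.0387, and no other of the 22 libraries left out in turn brought a call of PC. PC overlaps LRFN4 on the opposite strand (2011 counts in all against 51481 for PC) and holds a microRNA gene with 98 counts.

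ACO1 and IDH1 each passed in all 22 fits that left out 1 library, with adjusted p from 0.00786 to 0.0449 for ACO1 and from 0.0137 to 0.0484 for IDH1. With the block of body weight in the fit both passed (the smaller of edgeR's adjusted p being 0.0482, for ACO1), and with the block and a gene length offset together neither did (0.0517 for ACO1). Without all 4 libraries rich in follicle markers, the log2 fold change was 0.41 for ACO1 and 0.52 for IDH1, 0 of 9 genes passed edgeR's test and 2 of 9 had an unadjusted p up to 0.05. With the villus enterocyte score as a covariate these log2 fold changes were 0.32 and 0.38, with the B cell follicle score 0.25 and 0.35, and 0 of 9 genes passed in either fit (2 and 0 had an unadjusted p up to 0.05). In these same fits 0 of all genes tested passed, so the loss of calls was not particular to the enzymes. Whether the enterocyte and follicle cells take part in the differences was not tested.

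**Figure D2:**
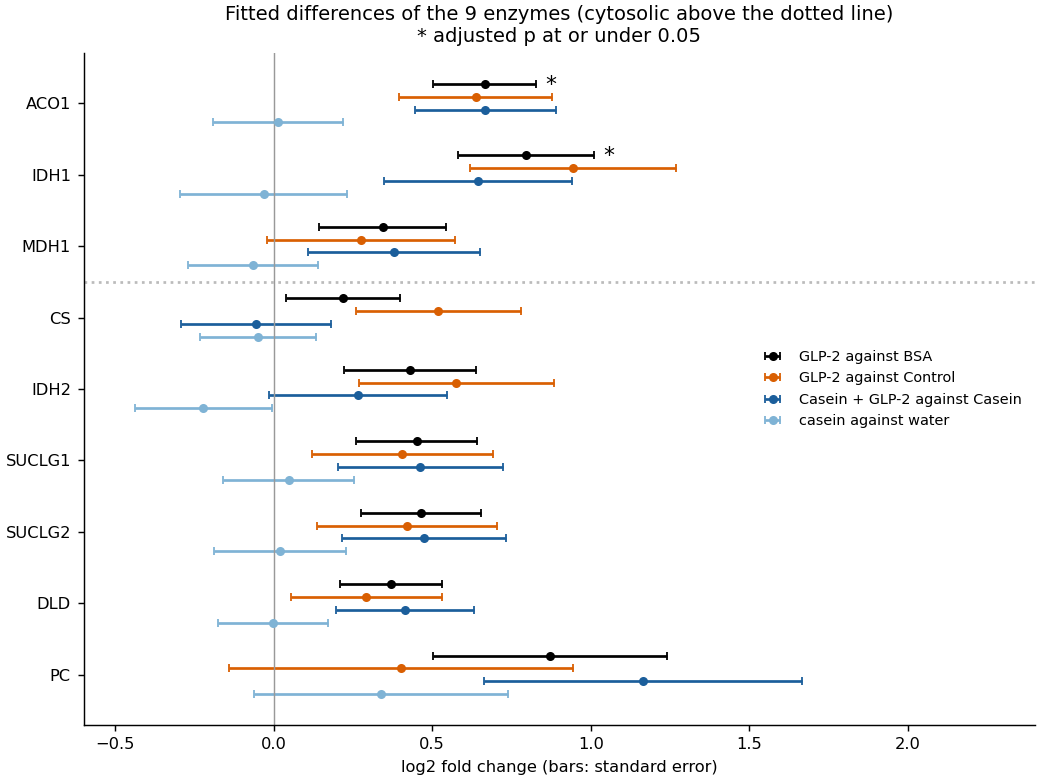
Log2 fold change and standard error of each enzyme gene (rows) in 4 comparisons (colours); the dotted line divides cytosolic from mitochondrial genes and an asterisk marks an adjusted p at or under 0.05. All 9 genes lie above 0 in the pooled comparison of GLP-2 with BSA, and only ACO1 and IDH1 of the 9 carry an asterisk there.

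Within each infusion no gene passed edgeR's test, and DESeq2 called 0 of 9 enzymes in each of the comparisons between treatments and in the interaction. In GLP-2 against Control, 0 of 9 enzymes passed edgeR's adjusted threshold (0% of all 15086 genes), and 2 of 9 had an unadjusted p up to 0.05 against 13.9% of all genes. These were ACO1, with a log2 fold change of 0.64 (SE 0.24), and IDH1, with 0.95 (SE 0.32). In Casein + GLP-2 against Casein, 0 of 9 passed (0% of all genes), and 3 of 9 had an unadjusted p up to 0.05 against 24.1% of all genes. These were ACO1 with 0.67 (SE 0.22), IDH1 with 0.64 (SE 0.30) and PC with 1.16 (SE 0.50). ACO1 thus had nearly the same fitted difference with and without casein. CS had a log2 fold change of 0.52 (SE 0.26) with water and of -0.057 (SE 0.24) with casein. The difference of these values, the interaction, was -0.58 (SE 0.35) on the log2 scale with an edgeR adjusted p of 0.996. For PC the interaction was 0.76 (SE 0.73). No interaction passed for any of the 9 genes (0% of all genes by edgeR), and 0 of 9 had an unadjusted p up to 0.05, against 4.28% of all genes.

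No change of the 9 enzymes with casein was detected. In casein against water, 0 of 9 passed (0% of 14096 genes by edgeR), 0 of 9 had an unadjusted p up to 0.05 (3.36% of all genes), and DESeq2 called 0 of 9. The log2 fold changes ran from -0.22 (SE 0.22) for IDH2 to 0.34 (SE 0.40) for PC. For ACO1 and IDH1, the genes that rose with GLP-2, they were 0.014 (SE 0.20) and -0.031 (SE 0.26). With 4 groups apart, Casein against Control called 0 of 9 (0% of all genes by edgeR, with 0 of 9 and 5.66% of all genes at an unadjusted p up to 0.05), with log2 fold changes from -0.16 to 0.26. Casein + GLP-2 against GLP-2 likewise called 0 of 9 (0% of all genes, with 0 of 9 and 2.64% of all genes unadjusted), with log2 fold changes from -0.35 for IDH2 to 0.61 for PC.

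The cytosolic and mitochondrial forms were then compared within each steer, which does not depend on the scaling between libraries. These ratios were not adjusted for RNA integrity. Its part in ratios of genes of unlike length (3028 bases for IDH1, 1754 for IDH2) was not tested. The log2 ratio of the FPKM of IDH1 to IDH2 in Control was -1.96, -1.76, -1.35, -1.03 and -0.89. In GLP-2 it was -1.19, -0.99, -0.90, -0.76 and -0.73. IDH2 was therefore the more abundant in each of these 10 steers, and 3 of 5 Control steers were below all GLP-2 steers. The mean ± SD over all GLP-2 injected steers was -0.84 ± 0.28 against -1.26 ± 0.37 with BSA (n = 11 each), which is 0.559 and 0.418 IDH1 per IDH2 on the linear scale. The log2 difference of 0.42 (SE 0.14) passed a two-sided permutation test (p = 0.00548, adjusted over 4 ratios 0.0110), and 11 of 11 GLP-2 steers were above the BSA median. Within an infusion it did not pass, at 0.48 (SE 0.22, exact permutation p = 0.0714) with water and 0.36 (SE 0.17, exact permutation p = 0.0628) with casein, each with an adjusted p over 8 such tests of 0.106. Without the 4 libraries rich in follicle markers it was 0.35 with an adjusted permutation p of 0.0729. Since IDH1 was among the genes the study had singled out, the direction of this ratio is not independent evidence either.

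For MDH1 to MDH2, the matrix malate dehydrogenase, the log2 ratio was -1.21 ± 0.26 with GLP-2 and -1.54 ± 0.35 with BSA. The difference of 0.33 (SE 0.13) passed narrowly (permutation p = 0.0206, adjusted 0.0275) and did not pass without Casein 2 (adjusted permutation p = 0.0557), Casein 3 (0.0537), Casein + GLP-2 1 (0.0561), Control 3 (0.0519), Control 5 (0.0537) or all 4 follicle-rich libraries (0.23, 0.162). Permuted within the blocks of body weight it did not pass either (0.32, adjusted permutation p = 0.0525). With water the difference was 0.012 (SE 0.19, exact permutation p = 0.944) and with casein it was 0.59 (SE 0.14, exact permutation p = 0.00433, adjusted over 8 such tests 0.0173). Those 2 differences were 0.58 apart, and a permutation of residuals gave p = 0.0189 for that gap, which did not pass after adjustment over 4 ratios (0.0756).

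SUCLG2 to SUCLA2 sets the GTP-specific against the ATP-specific beta subunit, both mitochondrial. SUCLG2 was the more abundant in all 22 steers, with a log2 ratio between 2.01 and 3.06 and a geometric mean of 5.84 SUCLG2 per SUCLA2. The log2 difference between GLP-2 and BSA of 0.17 (SE 0.10) did not pass the permutation test (adjusted p = 0.0999), though it did without Casein 1 (0.21, adjusted permutation p = 0.0417). Without the 4 follicle-rich libraries it was 0.042 with an adjusted permutation p of 0.679. With water alone, the Control values were 2.01, 2.15, 2.34, 2.45 and 2.55 and the GLP-2 values 2.56, 2.60, 2.61, 2.66 and 2.69. All 5 GLP-2 steers were above all 5 Control steers (log2 difference 0.32, exact permutation p = 0.00794, the smallest that 5 against 5 allows, adjusted over 8 tests 0.0212). With casein the log2 difference was 0.053 (SE 0.15). Of the 5 Control steers, 3 (Control 1, 3 and 5) are follicle-rich, and the part of this in the separation was not tested. The gap between the differences with water and with casein, -0.27, did not pass (permutation p = 0.153). For casein against water none of these 3 ratios passed, with log2 differences from 0.10 (SE 0.14) for MDH1 to MDH2 to 0.20 (SE 0.17) for IDH1 to IDH2 and unadjusted permutation p of at least 0.150.

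**Figure D3:**
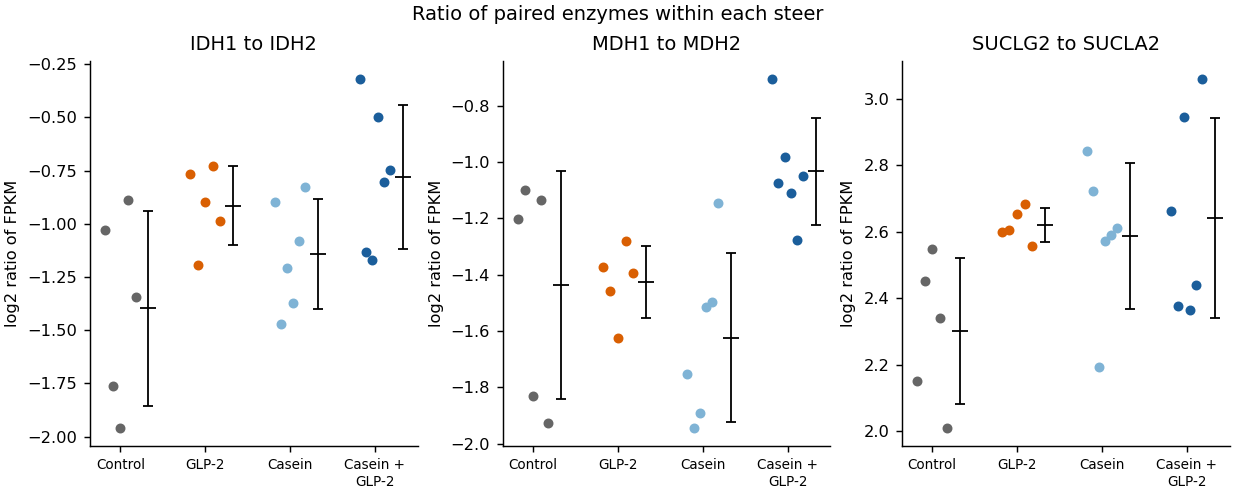
Log2 ratio of the FPKM of 3 enzyme pairs within each steer (1 point per steer) by treatment, with the mean and SD as a bar; the axes do not start at 0. In the SUCLG2 to SUCLA2 panel all 5 GLP-2 steers lie above all 5 Control steers.

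The rest of the pathway was described from a list of 52 genes around the cycle, of which 51 were in the table and 50 were tested. With GLP-2, 7 of 50 were higher and 0 lower (5.13% and 8.37% of all genes), with a median log2 fold change of 0.22, and 13 were higher and 3 lower at an unadjusted p up to 0.05 (16.5% and 18.1% of all genes). The 3 lower were PDHX, IDH3A and SLC25A12, listed here after their values were seen. With the block of body weight in the fit, 4 of 50 passed (PCCA, MMUT, PDP2 and GPT2) and 689 of all genes did in place of 1881. The blocked log2 fold changes of the others were 0.46 for PDHA1 (edgeR's adjusted p = 0.0677), 0.46 for PDP1 (0.0561) and 0.55 for PCCB (0.0701). In casein against water 0 of 50 passed by edgeR or DESeq2 and 0 had an edgeR unadjusted p up to 0.05. The count of 7 fell to 0 without the 4 follicle-rich libraries, and to 3 without Control 1, Control 3, GLP-2 3, Casein + GLP-2 1 or Casein + GLP-2 3, and rose to 11 without Control 2. It was 4 without Control 5, GLP-2 6, Casein 1, Casein 2, Casein + GLP-2 2 or Casein + GLP-2 6. The calls over all genes moved as well, from 1881 to 0 without the 4 follicle-rich libraries and to 3516 without Control 2. They were 634 to 903 in the single-library fits with a pathway count of 3, and 838 to 1601 in those with 4.

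All 7 belonged to the pyruvate dehydrogenase complex, its regulators or the anaplerotic enzymes. In the anaplerotic role 15 genes were tested, of which 12 were fitted higher, 4 of them passing, and 3 lower. Of the 4 core genes of the pyruvate dehydrogenase complex, which makes acetyl-CoA, only PDHA1 rose. Its rise was 0.45 on the log2 scale (SE 0.15, edgeR's adjusted p = 0.0472), from 34.2 ± 9.28 to 46.4 ± 6.72 FPKM. The other 3 core genes had log2 fold changes from -0.37 to -0.14 and did not pass. Among them PDHX, at -0.37 (SE 0.13, edgeR's adjusted p = 0.0518), missed the threshold about as narrowly as PDHA1 met it. PDHA1 too was singled out by the study. Both phosphatases that switch the complex on rose: PDP1 by 0.47 (SE 0.14), to 7.85 ± 1.82 FPKM, and PDP2 by 0.96 (SE 0.25), to 11.2 ± 3.38 FPKM. None of the 4 kinases that switch it off passed. Both subunits of propionyl-CoA carboxylase, which starts the entry of propionate into the cycle, rose, PCCA by 0.93 (SE 0.22, edgeR's adjusted p = 0.0214) and PCCB by 0.55 (SE 0.18). Methylmalonyl-CoA mutase (MMUT, listed under its older symbol MUT), which ends that route at succinyl-CoA, rose by 0.93 (SE 0.24). MCEE, the enzyme between them in that route, did not pass (0.41, SE 0.24, edgeR's adjusted p = 0.230). GPT2, the mitochondrial alanine aminotransferase that links alanine to pyruvate and glutamate to alpha-ketoglutarate, rose by 1.15 (SE 0.32), from 5.91 ± 3.904 to 12.9 ± 6.12 FPKM.

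The other groups held no gene that passed. Of the 13 other enzymes of the cycle, 11 had a log2 fold change above 0 (median 0.29), and the 3 with the smallest p were DLST, the transsuccinylase of the alpha-ketoglutarate dehydrogenase complex (0.49, SE 0.20), SDHA, the flavoprotein of succinate dehydrogenase (0.50, SE 0.22), and IDH3A, the alpha subunit of the NAD-linked isocitrate dehydrogenase (-0.33, SE 0.16). SDHA was also singled out by the study. Of 6 mitochondrial carriers tested none passed, with -0.54 (SE 0.20) for SLC25A12, an aspartate-glutamate carrier, and 0.32 (SE 0.15) for MPC2 and -0.24 (SE 0.15) for MPC1, the subunits of the mitochondrial pyruvate carrier. Of 6 subunits of the other complexes that use DLD, 5 had a log2 fold change below 0 and none passed, the smallest p being those of DBT (0.57, SE 0.26), GCSH (-0.26, SE 0.17) and BCKDHB (-0.38, SE 0.25). These roles therefore held values on either side of 0, as did the core of the pyruvate dehydrogenase complex.

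**Figure D4:**
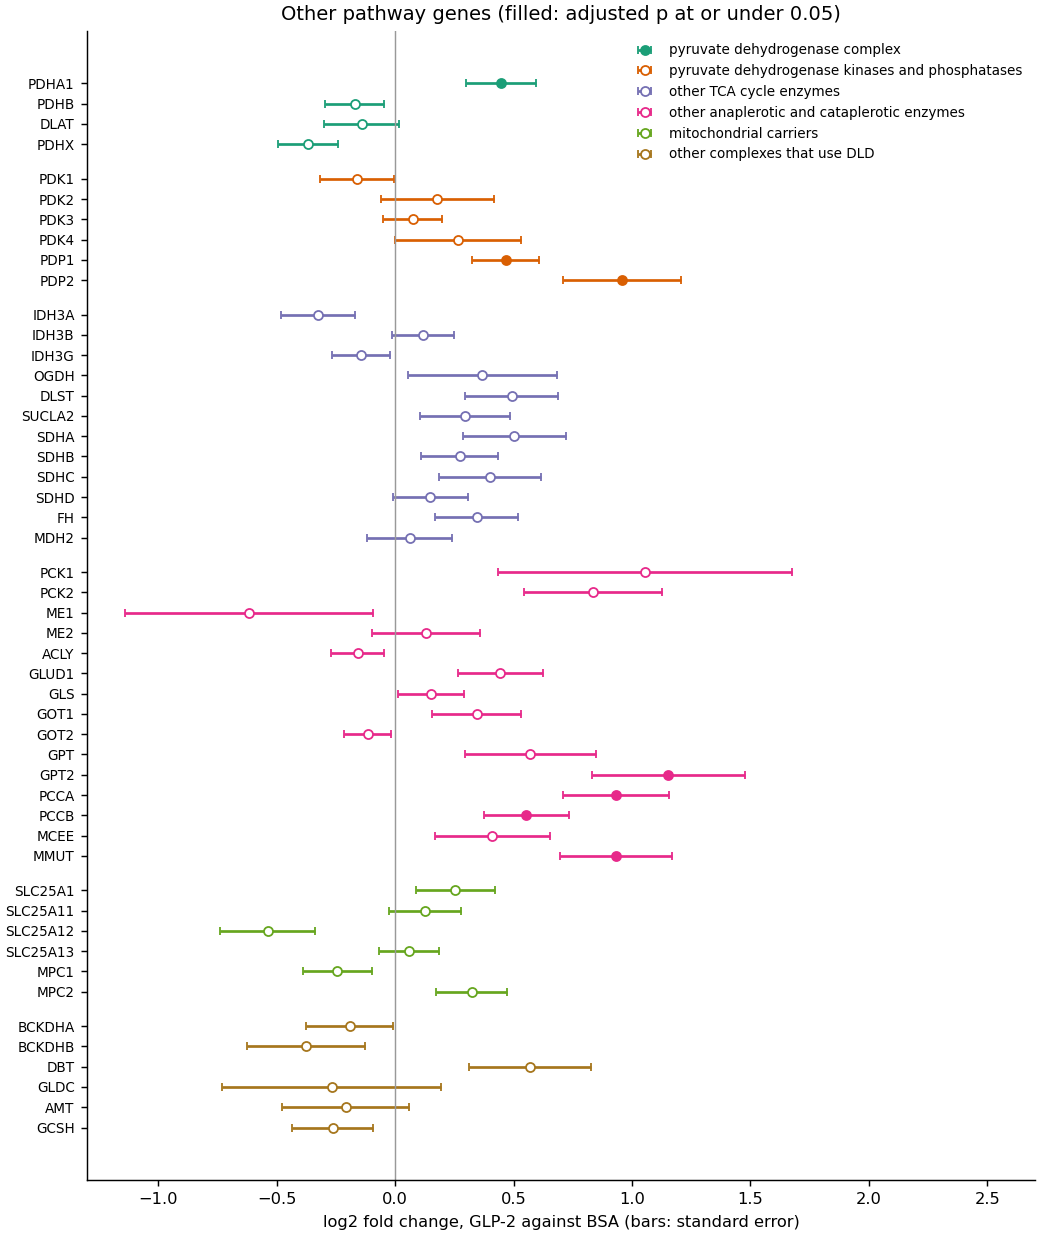
Log2 fold change, GLP-2 against BSA, and standard error of 49 of the 50 further genes tested of the pathway (rows), coloured by role; filled points passed at an adjusted p of 0.05. The 7 filled points all lie above 0, between 0.45 and 1.15, and belong to PDHA1, PDP1, PDP2, GPT2, PCCA, PCCB and MMUT.

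The 9 enzymes also varied together between steers. Over 22 steers, Spearman's rho of log2 CPM between members was 0.30 to 0.93 in 36 pairs with a median of 0.65, and 0.45 to 0.95 once treatment means were removed. These points share libraries and are given as a description. The mean log2 CPM of the 16 villus enterocyte markers, here called the enterocyte score, ran from 7.05 to 11.4 over the steers. Pearson's r with it was highest for PC, at 0.95 (Spearman's rho 0.90, permutation p = 2e-05 for each, the smallest these permutations can give), and lowest for CS, at 0.62 (rho 0.53, permutation p = 0.00332 and 0.0121). For ACO1 it was 0.87 (rho 0.87, permutation p = 2e-05 for each) and for IDH1 0.80 (rho 0.69, permutation p = 4e-05 and 0.000540). All 9 passed after Benjamini-Hochberg adjustment over 13 relations, with adjusted p for r of at most 0.00432. These permutations did not keep steers within their treatments. The share of all genes that would pass was not computed, so whether the relation is particular to these enzymes was not tested. Without Control 5 and Casein 1, the steers farthest from the median score, r was 0.91 for PC, 0.90 for ACO1, 0.81 for IDH1 and 0.67 for CS. Within treatments, r of the deviations from the treatment means was 0.94, 0.81, 0.72 and 0.64 in the same order.

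The isoenzyme ratios were set against the same score. For IDH1 to IDH2, r was 0.27 (rho 0.19, permutation p = 0.224 and 0.388) and -0.058 within treatments. For MDH1 to MDH2 it was 0.77 (rho 0.69, permutation p = 2e-05 and 0.000440) and 0.77 within treatments, and for SUCLG2 to SUCLA2 it was 0.33 (rho 0.17, permutation p = 0.134 and 0.447) and 0.19 within treatments. The value for MDH1 to MDH2 thus lay within the range of the enzymes themselves, and those of the other 2 ratios below it.

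**Figure D5:**
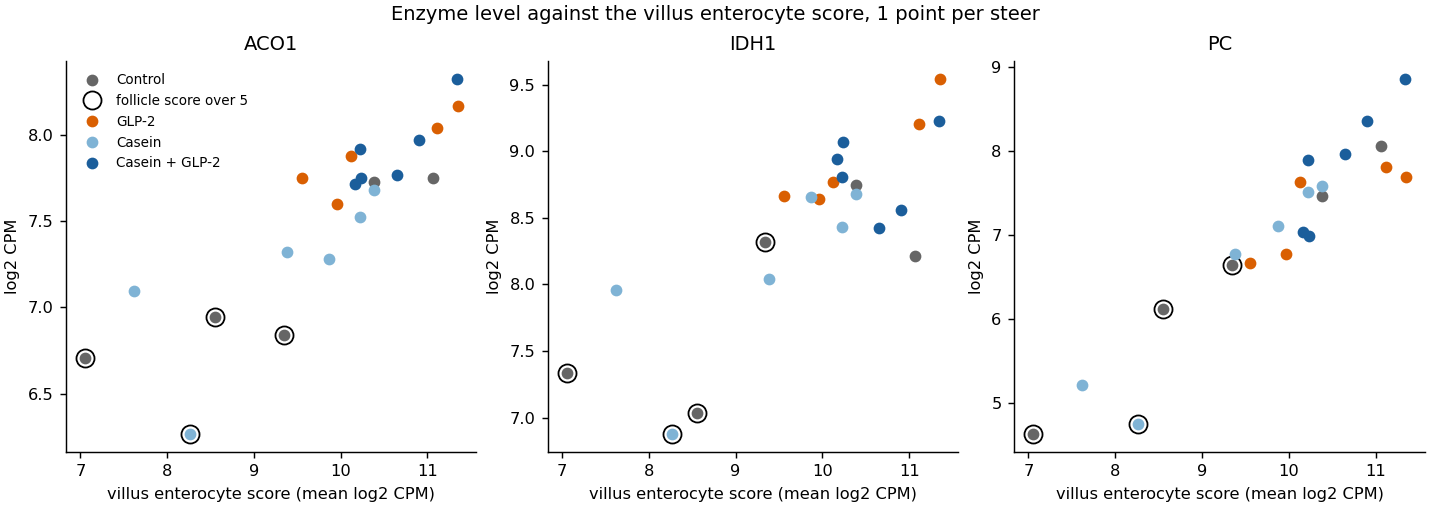
Log2 CPM of ACO1, IDH1 and PC against the enterocyte score (mean log2 CPM of 16 villus enterocyte markers), 1 point per steer, coloured by treatment; rings mark the 4 libraries with a follicle score over 5. PC follows the score most closely of the 3 (r = 0.95), and the ringed libraries lie at scores from 7.05 to 9.34.

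Across the 13245 other genes with a symbol that were kept for the 4 treatments, the genes whose log2 CPM over the 22 steers was most like that of each enzyme by Spearman's rho (given in parentheses) were as follows. For ACO1 they were BCO2 (0.94), P2RX4 (0.94) and PCCA (0.93), of which PCCA is one of the carboxylase subunits above. For IDH1, 2 of the 3 were PCCB (0.88), the other carboxylase subunit, and LEPROT (0.85). MDH1 came nearest to PLGRKT (0.97), FH (0.92) and ESD (0.92), FH being the fumarase of the cycle. CS came nearest to NSDHL (0.85), TMEM253 (0.83) and SLC51B (0.82), IDH2 to RNF152 (0.90), CNDP2 (0.89) and SEC14L2 (0.87) and DLD to CNIH1 (0.93), MMADHC (0.91) and TSPAN3 (0.90). SUCLG1 came nearest to SLC25A1 (0.95), VAPA (0.95) and MPP1 (0.94), where SLC25A1 is the mitochondrial citrate carrier, and SUCLG2 to SNX24 (0.97), PLLP (0.96) and AZI2 (0.96). PC came nearest to ALDH3A2 (0.98), CDHR5 (0.97) and a gene whose symbol the table holds only as a date (ENSBTAG00000008609, 0.96). CDHR5 is among the markers of the enterocyte score, so its likeness to PC and the relation of PC to that score are not separate observations. None of the 9 enzymes had another of the 9 among its 3 nearest genes, and the median rho to all genes lay between -0.054 and -0.0051.

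In the ARS-UCD1.2 assembly used for the counts, the 3 cytosolic genes lie at chr8:11611595-11674522 (ACO1, minus strand), chr2:96510261-96532002 (IDH1, minus strand) and chr11:62022816-62047723 (MDH1, plus strand). The mitochondrial genes lie at chr5:57042171-57065001 (CS, plus strand), chr21:21478221-21494539 (IDH2, minus strand), chr11:50516577-50551425 (SUCLG1, plus strand), chr22:33859633-34134874 (SUCLG2, plus strand), chr4:48953177-48979994 (DLD, plus strand) and chr29:44862572-44965356 (PC, minus strand). These are the annotated extents of protein-coding genes with introns included, and the counts are those of each whole gene. Each of the 9 had at least 319 counts in every library, the lowest being that of PC, so counting error is small beside the spread between steers.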

How the data were processed

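Jejunal mucosal messenger RNA was sequenced in 22 steers as strand-specific, poly-A selected libraries. Per the labels and the study's methods, the authors aligned reads with HISAT2 2.0.5 to ARS-UCD1.2 and deposited raw counts per gene from featureCounts 1.5.0-p3 (its strand setting is not given in the sources used here), with FPKM for the same genes. The deposited FPKM differed from counts per length and library total by 1 factor per library (0.798 to 1.37). No 2 libraries held identical counts. The deposited tables also hold gene annotation, which was used for names and positions. A further GLP-2 steer was not analysed here, and the study left a Control steer unsequenced because of low RNA integrity.

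Counts were kept by edgeR's filterByExpr (minimum count 10), scaled by TMM and tested with edgeR 4.0.16 quasi-likelihood fits and Benjamini-Hochberg adjustment over all genes tested, with a threshold of 0.05 and a tendency to 0.1. GLP-2 was tested against BSA over both infusions and casein against water over both injections, and a 4-treatment model gave the pairwise comparisons and the interaction. FPKM in the text were recomputed from counts with TMM, and log2 CPM used a prior count of 2. Isoenzyme ratios within a steer were tested by permutation with 100000 resamples (SciPy 1.17.1). limma 3.58.1 and DESeq2 1.42.0 served for alternatives, and the fits were tested on simulated data. The members, lists and tests were chosen with earlier results of these data known. Named genes were the 9 members, pathway genes past the threshold (otherwise the 3 of a role with the smallest p) and the 3 genes most like each member. PDHX and MCEE were added after their values were seen. SLC25A10, 1 of 7 carriers listed, was not matched, and ME3 was below the filter. P-values measure the spread between steers. Replicate numbers are the labels' blocks of body weight and pair steers by design. With treatment means removed, the mean correlation between steers of a block was 0.033 over 30 pairs, 13 of them over 0.1. Over 151 other pairs it was -0.0064, and the gap was not tested. Fits with the block are alternatives, and with GLP-2 they called 689 in place of 1881 of all genes. Sequences were not used here, and 1 ratio, 1 pathway gene and 1 gene like a member are counted but not reported by name.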

Additional observations from a re-analysis of the deposited data

Results flagged for a closer look

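In 36 sets of 1 gene in 1 treatment, 3 had an extreme steer whose gap to the next exceeded Dixon's limit, a test that flags about 1 set in 20 by chance. For MDH1, Casein 3 was the lowest of its group at 67.0 FPKM with the next steer at 130.1. For CS, the same steer was the lowest of its group at 89.5 FPKM with the next at 129. Casein 3 is also 1 of the 4 libraries with a follicle score over 5. For MDH1, Casein + GLP-2 1 was the highest of its group at 268 FPKM with the next at 189, and that steer's enterocyte score of 11.3 was the highest of its treatment.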

How the results depend on the processing

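ACO1 and IDH1 were called, and 2 of 9 enzymes in all, with DESeq2's size factors in edgeR, with no count filter, with at least 10 counts in every library, with a gene length offset, with casein as a covariate, with limma on log2(FPKM + 1) and log2(FPKM + 0.1), and with DESeq2. The count was 0 of 9 with the replicate block and a gene length offset together (smallest adjusted p 0.0517), with the B cell follicle score as a covariate (0.9998), with the villus enterocyte score as a covariate (0.847) and without the 4 libraries with a follicle score over 5 (0.3196), the last chosen after seeing the data. Under these 4 settings the pathway count of 7 and the 1881 calls over all genes were also 0. With a score as a covariate, 2 (follicle) and 5 (enterocyte) of the 9 fitted values changed sign, and without the 4 libraries 1 did, none of them called. Leaving out each library in turn gave 2 to 3 enzymes and 3 to 11 pathway genes. Of all genes, 634 were called without Casein + GLP-2 3 and 3516 without Control 2. The replicate block alone kept 2 of 9 enzymes but 4 pathway genes and 689 in place of 1881 of all genes. For MDH1 to MDH2, permutation within the replicate block gave a log2 difference of 0.32 (adjusted permutation p = 0.0525), the block alone changed no other call of an enzyme or ratio, leaving out each library gave 0.28 to 0.37, and leaving out the 4 libraries gave 0.23 (adjusted permutation p = 0.162). For IDH1 to IDH2 the latter gave 0.35 (adjusted permutation p = 0.0729), and for SUCLG2 to SUCLA2 it gave 0.042 (adjusted permutation p = 0.679), with 0.13 to 0.21 when each library was left out. The cause of these shifts was not tested. With limma on FPKM, 1210 of 2092 called genes were higher against 715 of 1881 by edgeR. In casein against water every alternative run called 0 enzymes and 0 pathway genes, and in the comparisons between treatments and the interaction every alternative run called 0 enzymes.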
